A study of Mus musculus with 2 samples.

Results

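The YAP and TEAD pathway was followed in cultured mouse glioma cells through 10 genes, chosen by their symbols among the 32285 genes counted. They were the coactivators Yap1 and Wwtr1, the transcription factors Tead1 and Tead2, the pathway regulators Amotl2, Lats2 and Ajuba, and Ankrd1, Axl and Crim1, which are known targets of YAP. The cells were GL261, a mouse glioma line of C57BL/6 origin that the labels call an astrocytoma, grown in DMEM with fetal bovine serum and penicillin-streptomycin. Adherent cells were grown on plastic in this medium and harvested before confluence. Neurospheres were free-floating spheres that formed after B-27 and the factors EGF and FGF, each at 20 ng/mL, were added to the same medium, and they were harvested at day 12. Both cultures were detached or broken up with trypsin, the neurospheres with trituration as well, and each gave 1 scRNA-Seq library. The question was how the genes differ between cells attached to plastic and cells that have lost that attachment. Loss of attachment, the added factors, the time in culture and the library cannot be told apart.

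YAP (Yap1) and its paralog TAZ (Wwtr1) are coactivators that do not bind DNA themselves and act mainly through the TEAD factors. In the Hippo pathway, the kinases MST1 and MST2 activate LATS1 and LATS2, which phosphorylate YAP and TAZ, so that these stay in the cytoplasm and are degraded. Attachment, spreading and tension on actin favor nuclear YAP and TAZ, while crowding and detachment favor their phosphorylation. Several of the inhibitors, among them Lats2 and Amotl2, are themselves known targets of YAP and TEAD, and in glioma the pathway has been linked to growth and invasion. What this pathway does is set mainly by phosphorylation and location of proteins, which RNA counts do not measure.

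TEAD factors bind the bases GGAATG, or CATTCC on the other strand. The sites with these letters are shown because most of the members' promoter windows held them. RefSeq (GRCm38.p6) gave a window from 250 bases before to 50 bases after a transcript start for 9 members and none for Tead1. Of these 9 members, 8 held the TEAD letters in at least 1 of their 11 windows. The exception was Tead2, and of the Lats2 windows only the first held them. Among all 32851 windows of this length, 14.7% held them, which is a share of windows and not of genes. The AP-1 letters TGANTCA, searched on both strands as a common partner motif, were in 0 of the 9 members' windows and in 7.81% of all windows. The sites follow in 30 bases each, 5′ to 3′ on the strand of the gene, with the TEAD letters in capitals:

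Yap1, chr9:8004720-8004749, minus strand: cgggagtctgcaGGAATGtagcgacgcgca
Wwtr1, chr3:57576029-57576058, minus strand: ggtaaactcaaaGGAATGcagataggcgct
Amotl2, chr9:102717727-102717756, plus strand: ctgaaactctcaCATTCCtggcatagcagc
Lats2, chr14:57746102-57746131, minus strand: cgtgacgcccgtGGAATGccaacaatgtag
Ajuba, first site, chr14:54577830-54577859, minus strand: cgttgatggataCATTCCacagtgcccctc
Ajuba, second site, chr14:54577808-54577837, minus strand: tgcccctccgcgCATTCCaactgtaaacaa
Axl, chr7:25788949-25788978, minus strand: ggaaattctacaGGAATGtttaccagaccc
Crim1, chr17:78200157-78200186, plus strand: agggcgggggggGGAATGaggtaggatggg
Ankrd1, first site, chr19:36120037-36120066, minus strand: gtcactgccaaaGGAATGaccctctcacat
Ankrd1, second site, chr19:36119950-36119979, minus strand: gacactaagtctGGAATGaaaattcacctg

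The site of Amotl2 began 65 bases before the RefSeq start, that of Crim1 79 bases and that of Yap1 141 bases before it. The site of Wwtr1 began 136 bases before one of its starts and 170 bases before the other. The site of Axl began 233 bases before the start. Those of Ajuba began 186 and 164 bases before the start and those of Ankrd1 210 and 123 bases before it. The letters in Lats2 lay just after the start. In the GENCODE annotation, the sites of Amotl2, Lats2 and Ankrd1 fell within 5′ UTRs of longer transcripts, and the others fell outside annotated genes. The 250 bases before the start of Axl, the member with the largest difference between the cultures, run over chr7:25788734-25788983 on the minus strand (GRCm38.p6), with the TEAD letters in capitals:

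Axl: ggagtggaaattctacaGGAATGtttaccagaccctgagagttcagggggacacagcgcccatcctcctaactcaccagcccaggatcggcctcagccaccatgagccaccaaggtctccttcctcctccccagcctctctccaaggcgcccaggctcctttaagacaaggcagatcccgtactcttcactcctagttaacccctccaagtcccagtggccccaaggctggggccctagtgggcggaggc

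These letters describe the windows and say nothing of what is bound there. Because the members include known targets of YAP, a high share of such sites among them is not independent of how they were chosen.

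The adherent library had 5051 kept cells with 46290996 UMIs and the neurosphere library 4276 kept cells with 64943938 UMIs, where a UMI is a unique molecular identifier that marks 1 counted RNA molecule. The median cell had 8260 UMIs in adherent and 13198.5 UMIs in neurosphere cells. Ribosomal protein genes took 29.4% of all UMIs in adherent and 16.4% in neurosphere cells, and they and the mitochondrial genes are left out of the totals. Levels are CPM, in which the UMIs of a gene are summed over the kept cells and scaled to the total of that library. A log2 fold change is the log2 of the neurosphere CPM over the adherent CPM, and positive values mean higher in neurosphere cells. With 1 library per culture no test was run, no difference has a replicate check, and the 95% intervals cover counting error only. A lower summed level can come from fewer cells with the RNA or from less RNA per cell, and shares of cells are given separately below. No cell type that lacks the genes was present to show the share of cells that free RNA alone would give.

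The defining astrocyte marker Gfap stood at 0.65 CPM in the adherent library and 0.42 CPM in the neurosphere library, and Aqp4 had 0 UMIs in both, so these markers of the labelled type were nearly or wholly absent. Other markers of glia and progenitors were present. The 8 oligodendrocyte lineage markers summed to 775 CPM in the adherent and 2557 CPM in the neurosphere library, the 8 astrocyte markers to 567 and 366 CPM, of which Slc1a3 made 370 and 80.5 CPM and S100b 161 and 255 CPM, and the 6 neural stem cell markers to 358 and 471 CPM. The 5 neuronal markers summed to 51.5 and 236 CPM, nearly all from Map2, Tubb3 and Syt1. The 8 immune markers summed to 15.4 and 6.59 CPM, with Ptprc at 1 and 0 UMIs, and the 5 endothelial markers to 1.49 and 3.79 CPM. The 6 fibroblast and mural markers summed to 3.56 and 387 CPM. Of these, Col1a1 made 2.51 and 329 CPM, Dcn 0.022 and 55.5 CPM and Lum 0 and 2.20 CPM, while Pdgfrb, Rgs5 and Acta2 stayed under 1 CPM. The sums of these lists differed between the cultures, and their part in the members' differences was not tested.

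Across the 10 members, Amotl2 and Lats2 rose over 2-fold in neurosphere cells, Axl fell over 2-fold, and 5 members differed by less. Ankrd1 and Crim1 had fewer than 50 UMIs over both libraries and are left out of these counts. Of 14654 genes with at least 50 UMIs, 21.7% were over 2-fold higher and 11.7% over 2-fold lower in neurosphere cells, 33.4% in either direction. Against this background, 2 of 8 members higher and 1 of 8 lower is near the share among all genes. The median log2 fold change of the 8 members was -0.25, and that of all 14654 genes was 0.32. Summed over the 10 members, the level was 242 CPM in the adherent and 227 CPM in the neurosphere library. The opposite differences of single members are thus not seen in their sum.

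**Figure D1:**
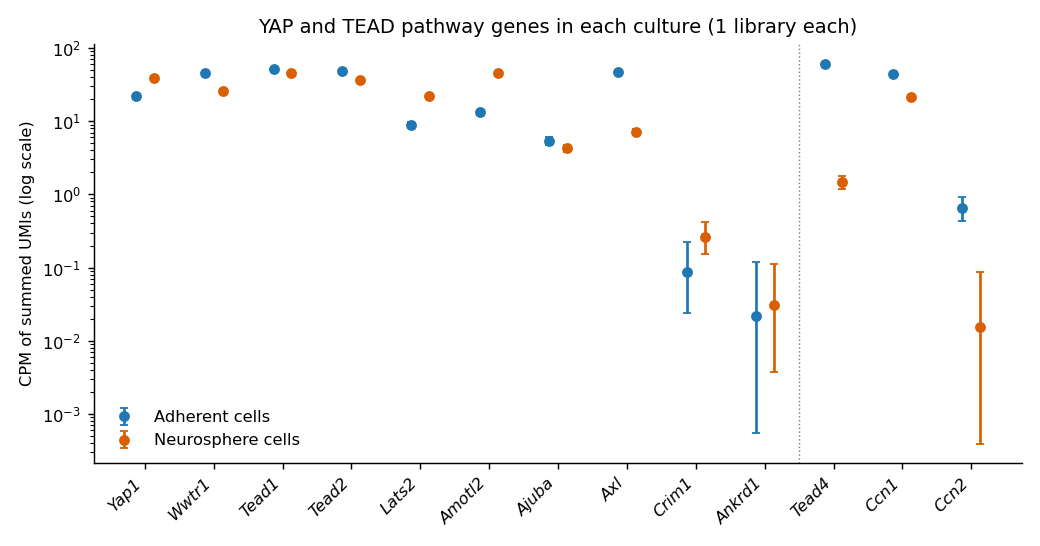
CPM of summed UMIs (log axis) of the 10 members and, right of the dotted line, Tead4, Ccn1 and Ccn2, in the adherent (blue) and neurosphere (orange) library. Bars are exact Poisson 95% intervals of the counts, which for most genes are smaller than the point. Axl and Tead4 stand lower and Amotl2 and Lats2 higher in neurosphere cells, and Crim1 and Ankrd1 lie under 1 CPM in both.

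Scaling by TMM shifted the median log2 fold change of all genes by -0.22 and gave 16.1% of genes over 2-fold higher and 14.5% lower. A total that included mitochondrial and ribosomal genes shifted it by 0.22 and gave 29.5% and 9.38%. The place of a member among all genes does not depend on such a shift, so for the 8 members with at least 50 UMIs the share of the 14654 genes with a lower log2 fold change is given as well.

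The coactivators differed in opposite directions. Yap1 (ENSMUSG00000053110, chr9:7931999-8004596, minus strand) had 1023 UMIs in adherent and 2551 UMIs in neurosphere cells. Its level was 22.1 CPM in adherent (95% interval 20.8 to 23.5) and 39.3 CPM in neurosphere cells (37.8 to 40.8), with a log2 fold change of 0.83 (0.72 to 0.94). The neurosphere level was thus 1.78 times the adherent level, under the 2-fold limit, and 72.4% of all genes had a lower log2 fold change. Wwtr1 (ENSMUSG00000027803, chr3:57455649-57575910, minus strand) had 2094 UMIs in adherent and 1690 UMIs in neurosphere cells. Its level was 45.2 CPM (43.3 to 47.2) in the adherent and 26.0 CPM (24.8 to 27.3) in the neurosphere library, with a log2 fold change of -0.80 (-0.89 to -0.70). With TMM scaling, Wwtr1 passed the 2-fold limit, at -1.01, and 14.4% of all genes had a lower log2 fold change.

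The balance between the coactivators needs no scaling between libraries. Yap1 took 32.8% of the UMIs of Yap1 and Wwtr1 together in adherent cells (1023 of 3117 UMIs, exact binomial 95% interval 31.2% to 34.5%). In neurosphere cells it took 60.2% (2551 of 4241 UMIs, 58.7% to 61.6%). The balance of UMIs was thus turned toward Yap1 in neurosphere cells. Per kilobase of exons, the level of Wwtr1 was 9.47 CPM in the adherent and 5.45 CPM in the neurosphere library, and that of Yap1 was 2.39 and 4.24 CPM. Which coactivator RNA was the more abundant in neurosphere cells therefore depended on whether length was taken into account, and in a 3′ library counts need not follow length.

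**Figure D2:**
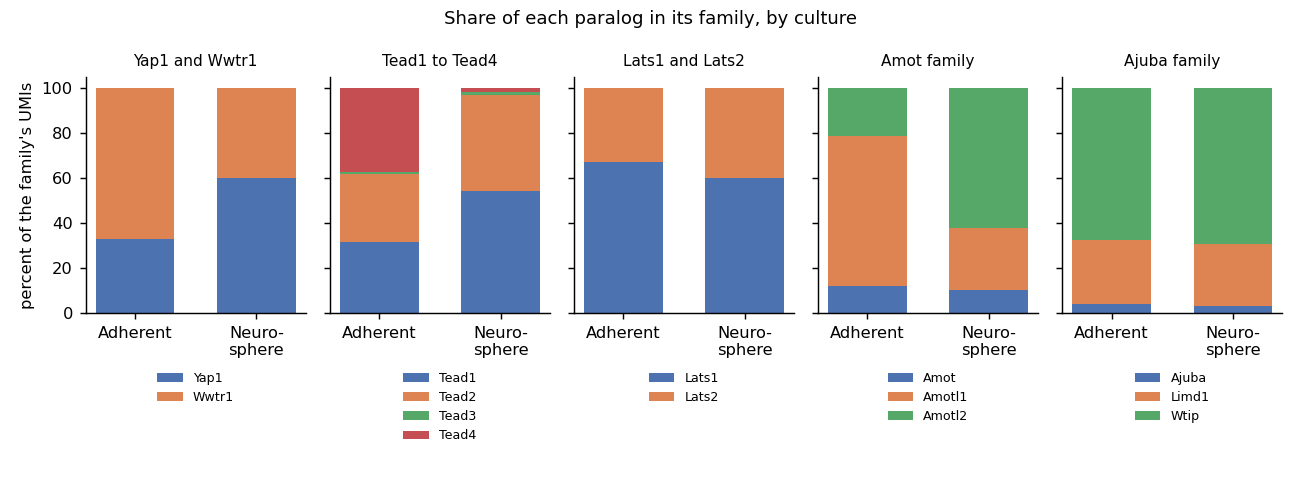
Percent of the UMIs of each paralog family taken by each paralog, in adherent and neurosphere cells, for Yap1 and Wwtr1, the 4 TEAD genes, Lats1 and Lats2, the Amot family and the Ajuba family. The Yap1, Amotl2 and Tead1 shares are larger in neurosphere cells, the Tead4 share falls from 37.4% to 1.74%, and the Ajuba family differs little.

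The TEAD members were close between the cultures, while Tead4, which is not a member, was not. Tead1 (ENSMUSG00000055320, chr7:112679318-112906807, plus strand) had 2358 and 3008 UMIs, for levels of 50.9 CPM (48.9 to 53.0) in the adherent and 46.3 CPM (44.7 to 48.0) in the neurosphere library. Its log2 fold change of -0.14 (-0.22 to -0.06) was the smallest in size among the 8 members counted, and it turned to 0.082 when the total included mitochondrial and ribosomal genes. Tead2 (ENSMUSG00000030796, chr7:45215753-45233644, plus strand) is expressed early in embryos and in neural progenitors. It had 2235 and 2360 UMIs, with levels of 48.3 CPM (46.3 to 50.3) in the adherent and 36.3 CPM (34.9 to 37.8) in the neurosphere library and a log2 fold change of -0.41 (-0.49 to -0.33). Among all genes, 30.7% had a lower log2 fold change than Tead1 and 22.4% a lower one than Tead2.

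Tead4 (chr6:128224288-128300823, minus strand), known for its role in trophectoderm and muscle, fell from 2785 UMIs in adherent to 96 UMIs in neurosphere cells. Its level fell from 60.2 CPM to 1.48 CPM, 40.7-fold lower, with a log2 fold change of -5.35 (-5.66 to -5.05). A lower log2 fold change was found for 0.266% of all genes, and Tead4 stayed between -5.60 and -4.63 under every alternative run. Tead3 had 63 and 67 UMIs, 1.36 and 1.03 CPM. Of all TEAD UMIs, Tead4 took 37.4% (36.3% to 38.5%, of 7441 UMIs) in adherent and 1.74% (1.41% to 2.12%, of 5531 UMIs) in neurosphere cells. Tead1 took 31.7% and 54.4%, and Tead2 30.0% and 42.7%. Per kilobase of exons, Tead4 went from 16.7 to 0.41 CPM, next to 3.75 and 3.41 CPM for Tead1 and 10.1 and 7.59 CPM for Tead2. On both scales, TEAD RNA in neurosphere cells was mostly that of the members, whose own levels were within 2-fold between the cultures.

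Among the regulators, both Lats2 and Amotl2 rose. Lats2 (ENSMUSG00000021959, chr14:57689662-57758388, minus strand), the kinase that phosphorylates YAP and TAZ, had 407 UMIs in adherent and 1414 UMIs in neurosphere cells. Its level rose from 8.79 CPM (7.96 to 9.69) to 21.8 CPM (20.7 to 22.9), 2.48-fold, with a log2 fold change of 1.31 (1.15 to 1.47). Its paralog Lats1 differed in the same direction with a smaller ratio, from 18.04 to 32.8 CPM (log2 fold change 0.86, 0.74 to 0.98), and Lats2 took 32.8% of the UMIs of both kinases in adherent and 39.9% in neurosphere cells. Among all genes, 85.9% had a lower log2 fold change than Lats2.

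Amotl2 (ENSMUSG00000032531, chr9:102716672-102733418, plus strand) encodes an angiomotin, a protein of cell junctions and actin that binds YAP and holds it in the cytoplasm. It had 613 UMIs in adherent and 2930 UMIs in neurosphere cells. Its level rose from 13.2 CPM (12.2 to 14.3) to 45.1 CPM (43.5 to 46.8), 3.41-fold, with a log2 fold change of 1.77 (1.64 to 1.90). This was the largest rise among the members, and 91.6% of all genes had a lower log2 fold change. The related Amotl1 fell, from 41.2 to 19.7 CPM (log2 fold change -1.07), and Amot was at 7.52 and 7.51 CPM. The Amotl2 share of the family's UMIs was 21.4% in adherent and 62.4% in neurosphere cells, against 66.5% and 27.2% for Amotl1 and 12.1% and 10.4% for Amot. The balance of the family's UMIs was thus turned from Amotl1 toward Amotl2.

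Ajuba (ENSMUSG00000022178, chr14:54567472-54577558, minus strand) encodes a LIM protein that binds LATS kinases at adhesions under tension and restrains them. It had 252 and 276 UMIs, and its level was 5.44 CPM (4.79 to 6.16) in the adherent and 4.25 CPM (3.76 to 4.78) in the neurosphere library. The log2 fold change was -0.36 (-0.61 to -0.11), with 23.9% of all genes lower. Ajuba took 4.08% and 3.14% of its family's UMIs, next to 28.4% and 27.7% for Limd1 and 67.5% and 69.2% for Wtip.

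Besides Lats2 and Amotl2, which are targets as well as inhibitors and rose, Axl, Crim1 and Ankrd1 are members known as targets. Axl had enough UMIs to compare, while Crim1 and Ankrd1 were near the detection limit. Axl (ENSMUSG00000002602, chr7:25757273-25788705, minus strand), a receptor tyrosine kinase for Gas6 that is linked to invasion in glioma, had 2204 UMIs in adherent and 463 UMIs in neurosphere cells. Its level fell from 47.6 CPM (45.6 to 49.6) to 7.13 CPM (6.49 to 7.81), 6.68-fold lower, with a log2 fold change of -2.74 (-2.89 to -2.59). Among all genes, 2.66% had a lower log2 fold change. Crim1 (ENSMUSG00000024074, chr17:78200248-78376592, plus strand), a membrane protein that binds BMPs, had 4 UMIs in adherent and 17 UMIs in neurosphere cells. The log2 fold change of Crim1 was 1.60 with an interval from -0.02 to 3.63, so a difference was not detectable at this depth. Ankrd1 (ENSMUSG00000024803, chr19:36111961-36120099, minus strand), a nuclear ankyrin repeat protein first known from heart muscle, had 1 and 2 UMIs, and no ratio is given.

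Ccn1 and Ccn2, secreted matrix proteins often used as targets of YAP, were lower in neurosphere cells, like Axl and unlike Lats2 and Amotl2. Ccn1 (Cyr61), at chr3:145646976-145649981 on the minus strand, fell from 44.8 CPM (2075 UMIs) to 21.6 CPM (1403 UMIs), with a log2 fold change of -1.05 (-1.15 to -0.95). The value for Ccn1 was within 2-fold under 3 alternatives, at -0.83 when mitochondrial and ribosomal genes entered the total, -0.87 after removal of the length trend and -0.91 in thinned cells. Ccn2 (Ctgf) had 30 UMIs in adherent and 1 UMI in neurosphere cells, for a log2 fold change of -5.40 (-10.75 to -2.81). Ccn1 is also an immediate early gene, which handling of cells can induce. Of 10 measured genes of a dissociation stress list, 3 were over 2-fold higher and 3 over 2-fold lower in neurosphere cells (30.0% each, beside 21.7% and 11.7% of all genes), with a summed level of 873 CPM in the adherent and 1073 CPM in the neurosphere library. Ccn1 also fell with the UMI total of the cells within each culture, as given below. The parts of handling and of this depth in the difference of Ccn1 were not tested.

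In single cells, the members were sparse. Kept cells with at least 5000 UMIs were thinned to that number, which gave 4464 adherent and 4196 neurosphere cells of equal UMI total. Cells with fewer UMIs, 587 of the adherent and 80 of the neurosphere library, were not used here. Yap1 had a UMI in 10.5% of adherent (9.60% to 11.4%) and 18.1% of neurosphere cells (17.0% to 19.3%), and before thinning in 17.4% and 41.0%. Wwtr1 was found in 19.7% (18.5% to 20.9%) and 13.5% (12.5% to 14.6%), and before thinning in 32.0% and 30.2%. The near equality of Wwtr1 before thinning went with the deeper neurosphere cells, and after thinning the order followed the CPM.

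Of the thinned cells, 21.7% in the adherent and 20.2% in the neurosphere library held a UMI of Tead1, and 34.4% and 43.1% did before thinning. For Tead2 the shares were 20.5% and 15.8%, before thinning 33.9% and 36.3%. Tead4 went from 24.0% to 0.715%, before thinning from 36.6% to 1.78%. In neurosphere cells, Tead4 was thus detected in far fewer cells than the TEAD members.

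Lats2 was detected in 4.23% of adherent (3.66% to 4.87%) and 11.3% of neurosphere thinned cells (10.4% to 12.3%), before thinning in 7.56% and 25.6%. Amotl2 was detected in 6.41% (5.71% to 7.17%) and 21.4% (20.2% to 22.7%), before thinning in 10.7% and 42.0%. Axl went from 20.7% (19.5% to 21.9%) to 3.15% (2.64% to 3.72%), before thinning from 33.5% to 8.61%. The rise of Amotl2 and Lats2 and the fall of Axl were therefore also seen in the share of cells with a UMI. Ajuba was detected in 2.53% and 2.34% of thinned cells and before thinning in 4.71% and 6.10%, Crim1 in 0.045% and 0.19%. Ankrd1 was detected in 0 of 4464 adherent cells, where the exact interval reached 0.083%, and in 0.048% of neurosphere cells.

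**Figure D3:**
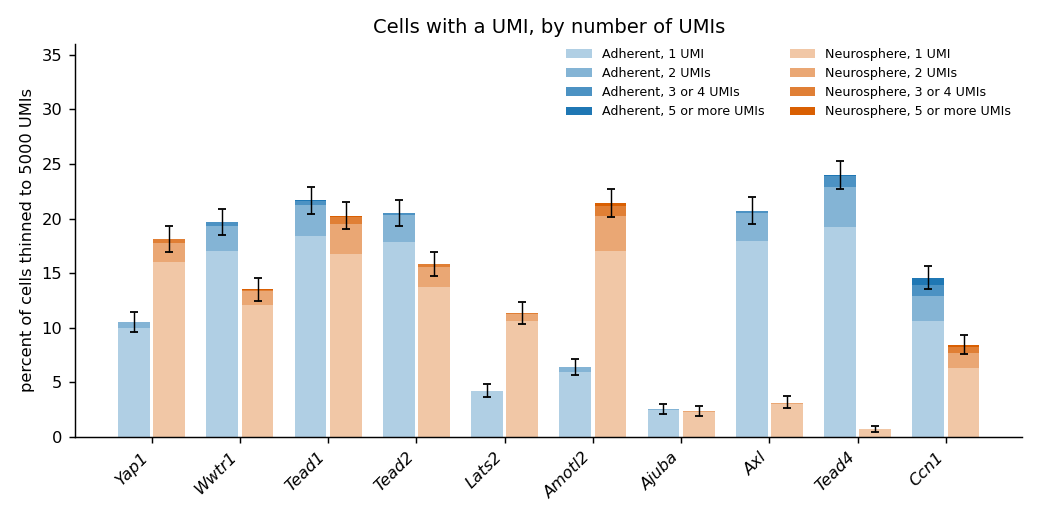
Percent of cells thinned to 5000 UMIs that held a UMI of each gene, in adherent (blue) and neurosphere (orange) cells, with darker parts for cells with more UMIs and exact binomial 95% intervals on the total. Most positive cells held 1 UMI. Amotl2 is detected in more neurosphere than adherent cells, and Axl and Tead4 in few neurosphere cells.

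At the low counts of thinned cells, the share of cells with a UMI says little of how evenly a gene is spread. From its mean, a Poisson spread gives Amotl2 in 24.4% of neurosphere cells, next to 21.4% found, with up to 10 UMIs in a cell, and the 5% of cells with the most UMIs held 41.4% of them. For Ccn1 it gives 20.5% in adherent cells, next to 14.6% found, and 11.5% in neurosphere cells, next to 8.44% found. Correlations between members over cells were near 0, with no Pearson r above 0.037 over the 36 pairs in adherent and 0.050 over the 45 pairs in neurosphere cells (log-scaled thinned counts, 4464 and 4196 cells of 1 library each). For the members with a UMI in at least 10% of thinned cells of a library (5 in adherent and 6 in neurosphere cells), no gene reached an r of 0.2, and in counts this sparse a low r is no finding, so no gene is named as most like a member.

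Within the neurosphere library, Amotl2 varied with the cell cycle list. Thinned cells with at most 1 UMI of 20 G2/M genes (661 cells, 15.8%) were set beside those with at least 5 UMIs (2739 cells, 65.3%). Amotl2 was at 102.9 CPM (92.2 to 114.4) in the cells low in G2/M genes and 40.8 CPM (37.5 to 44.3) in the cells high in them. Lats2 was at 36.6 CPM (30.4 to 43.7) and 20.0 CPM (17.7 to 22.5), and Wwtr1 at 41.8 CPM (35.1 to 49.3) and 25.9 CPM (23.3 to 28.8). Both inhibitors and Wwtr1 were thus higher in the cells low in G2/M genes. Yap1 was at 41.5 CPM in both sets, Tead1 at 51.1 and 49.4 CPM, Tead2 at 30.0 and 37.9 CPM, and Axl at 8.47 and 5.70 CPM. These sets of cells share 1 library and are not replicates.

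Depth moved with this split. Before thinning, the median was 8755 UMIs in the cells low in G2/M genes and 16158 UMIs in the cells high in them. With neurosphere cells in quartile groups of UMI total, from shallow to deep, Amotl2 was at 86.7, 60.2, 41.2 and 35.7 CPM. Within these groups, Amotl2 was at 116.8 against 57.5 CPM, 94.2 against 45.6 CPM, 65.6 against 37.6 CPM and 53.8 against 35.5 CPM in cells low against high in G2/M genes, with 380, 191, 64 and 26 cells in the low sets. Amotl2 was thus higher in the low set of each group, though in both deeper groups the intervals overlapped. Wwtr1 was at 41.1 against 39.5 CPM, 45.03 against 24.3 CPM, 34.4 against 23.7 CPM and 46.2 against 24.8 CPM. Lats2 was at 34.7 against 28.8 CPM, 44.0 against 19.02 CPM, 15.6 against 16.7 CPM and 61.5 against 20.8 CPM. The order of Lats2 thus did not hold in every group. These splits within groups were chosen after the data were seen. In adherent cells, where 65 cells (1.46%) were low in G2/M genes, Amotl2 was at 21.5 CPM in them (7 UMIs, 8.66 to 44.4) and 12.97 CPM (11.4 to 14.7) in the cells high in these genes, a difference not detectable at this depth. Over the adherent quartile groups, Amotl2 went from 18.1 CPM in the shallowest to 9.498 CPM in the deepest. Ccn1 fell with depth in both cultures. From shallow to deep, it was at 62.4, 48.0, 42.7 and 30.6 CPM in the adherent groups. In the neurosphere groups it was at 33.9, 28.8, 21.9 and 13.2 CPM. At near depths, Ccn1 was at 33.9 CPM (29.1 to 39.3) in the neurosphere group with a median of 7388 UMIs before thinning. It was at 48.0 CPM (42.5 to 54.1) in the adherent group with a median of 7833.5 UMIs. Between the cultures, 0 of the 20 G2/M genes were past 2-fold, beside 33.4% of all genes. Their median log2 fold change was -0.086, next to 0.32 for all genes, and in thinned cells -0.31, next to 0.35. The share of cells differed all the same, as 88.8% of adherent and 65.3% of neurosphere thinned cells had at least 5 UMIs of these genes. At most 1 UMI was held by 1.46% of adherent and 15.8% of neurosphere thinned cells. With mitochondrial and ribosomal genes in the total used, 2 of the 20 were higher, beside 29.5% of all genes, and 1 was higher after removal of the length trend.

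**Figure D4:**
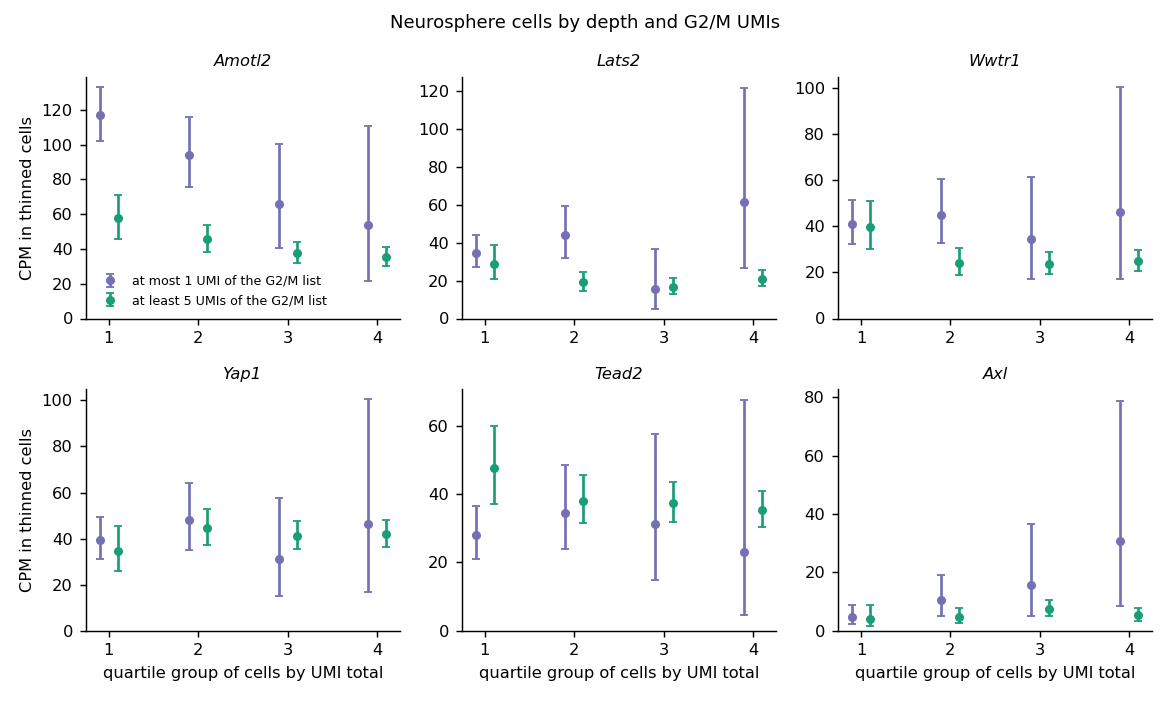
CPM of 6 members in thinned neurosphere cells by quartile group of cells in UMI total (1 shallowest, 4 deepest), for cells with at most 1 UMI (purple) and at least 5 UMIs (green) of the G2/M list, with exact Poisson 95% intervals. Amotl2 is higher in the purple set in each group and falls with depth in both sets, while Yap1 overlaps throughout.

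Krt8, a keratin detected in 65.5% of neurosphere and 1.66% of adherent thinned cells, divided the former into 2747 cells with and 1449 cells without a UMI, whose medians before thinning were 13887 and 12338 UMIs. Amotl2 was at 55.8 and 56.3 CPM in these sets. Yap1 was at 37.8 CPM (34.6 to 41.2) with and 47.1 CPM (42.2 to 52.3) without Krt8, Wwtr1 at 27.7 and 35.2 CPM, and Tead2 at 32.5 and 43.1 CPM. Ccn1 differed more than these members, at 15.7 CPM (13.6 to 17.9) with and 41.1 CPM (36.6 to 46.1) without Krt8. Amotl2 was thus as high in cells without Krt8, and Ccn1 without Krt8 stood near its adherent level of 44.8 CPM.

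S100a4 and Ly6a, which were high in adherent cells, had a UMI in 46 of the thinned neurosphere cells. These cells held Axl at 34.8 CPM (8 UMIs, 15.02 to 68.5), next to 6.27 CPM (5.23 to 7.44) in the other 4150 cells, and Tead4 at 21.7 CPM (5 UMIs) next to 1.30 CPM. They also held Krt8, which was detected in 65.5% of all thinned neurosphere cells. None of their barcodes was shared with the adherent library. Of all called cells, only 12 barcodes occurred in both libraries, too few for this to tell where the RNA of these 46 cells came from. A further split by Col1a1 or Dcn, chosen after the data were seen, gave Axl at 4.40 CPM (3.32 to 5.71) in 2547 cells with and 9.95 CPM (7.91 to 12.3) in 1649 cells without a UMI of these genes, and Amotl2 at 54.6 and 58.1 CPM.

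The wider pathway was read from lists, which overlap with each other and with the members. Of 22 known YAP and TAZ targets, 16 had at least 50 UMIs, of which 5 rose and 6 fell over 2-fold, 31.25% and 37.5%, beside 21.7% and 11.7% of all genes, with a median log2 fold change of -0.55. With mitochondrial and ribosomal genes in the total, the balance turned to 6 higher and 5 lower (37.5% and 31.25%), beside 29.5% and 9.38% of all genes. In thinned cells it was 5 higher and 4 lower of 14. TMM scaling gave 5 higher and 7 lower (31.25% and 43.75%), beside 16.1% and 14.5% of all genes, and median-of-ratios size factors gave the same counts. Without the members, 13 targets were measured, with 3 higher, 5 lower and a median of -0.72. The falls included Myof, a ferlin of membrane repair, from 29.7 to 2.11 CPM (log2 fold change -3.81), Gadd45a, a growth arrest gene, from 148 to 26.6 CPM (-2.47), and Rbms3, an RNA-binding protein, from 26.9 to 8.48 CPM (-1.66). The rises included Tgfb2, a growth factor, from 3.50 to 31.4 CPM (3.16), Ptpn14, a phosphatase that binds YAP, from 18.02 to 90.7 CPM (2.33), and Fjx1, from 0.28 to 2.97 CPM (3.40, interval 2.60 to 4.34). Fjx1 had 13 UMIs in adherent cells, and its log2 fold change ranged from 1.63 to 3.996 over the alternatives. Of the named rises, Ptpn14, Amotl2 and Lats2 encode inhibitors of YAP.

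**Figure D5:**
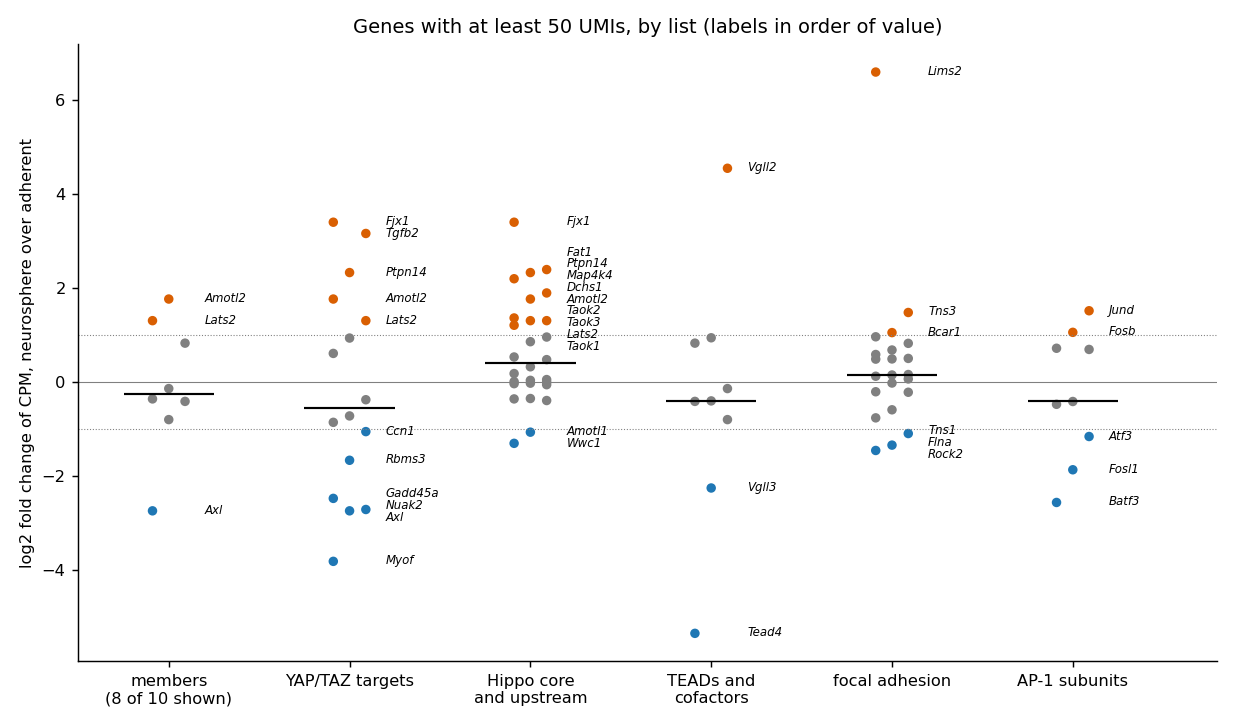
log2 fold change (neurosphere over adherent) of genes with at least 50 UMIs in 6 overlapping lists, 1 point per gene, with bars at each list's median, dotted lines at 2-fold, and names for the genes past it. The Hippo list has 10 genes above and 2 below the dotted lines, and the target list has genes on both sides.

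Summed per thinned cell, the 22 targets gave a median of 4 UMIs (quartiles 2 and 7) in adherent and 5 UMIs (quartiles 3 and 7) in neurosphere cells. Over the adherent median lay 50.6% of neurosphere cells (49.1% to 52.1%) and 47.7% of adherent cells. With F3, the tissue factor gene, at 486 CPM in the adherent and 375 CPM in the neurosphere library, a single gene made up much of the summed 1004 and 953 CPM of the list. The 10 members summed to a median of 1 UMI per cell in both cultures, with 31.7% of adherent and 31.9% of neurosphere cells at 0. A summed score of targets or members thus hid the opposite differences of single genes.

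Of 29 genes of the Hippo core and upstream regulators, 28 were measured, of which 10 rose and 2 fell, 35.7% and 7.14%, beside 21.7% and 11.7% of all genes, with a median of 0.40 next to 0.32. With the length trend taken out, the Hippo median was 0.18 and that of all genes 0.33, so the order of these medians turned. Fat1, a giant protocadherin, rose from 22.6 to 119 CPM (log2 fold change 2.40), and Map4k4, a kinase that acts on LATS beside the MST kinases, from 64.9 to 298 CPM (2.20). Wwc1, the gene of the scaffold KIBRA, fell from 39.5 to 16.0 CPM (-1.30). The core genes Stk3 and Stk4, which encode the MST kinases, and Sav1 and Nf2 stayed within 2-fold, at log2 fold changes of 0.54, 0.18, 0.48 and 0.04. Beside the members Amotl2 and Lats2, the other rises in this list were those of Taok1, Taok2 and Taok3, kinases that activate the MST kinases, of Dchs1, the partner of Fat cadherins, of Fjx1 and of Ptpn14.

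Beside the same 21.7% and 11.7% of all genes, 1 of 9 coactivators, TEADs and cofactors rose and 2 fell (11.1% and 22.2%), with a median of -0.40. Vgll2, a cofactor that binds TEAD, rose from 0.91 to 21.3 CPM (log2 fold change 4.55), Vgll3 fell from 8.66 to 1.82 CPM (-2.25), and Vgll4 was at 35.2 and 67.7 CPM (0.94). Of 22 focal adhesion genes, which build the contacts of cells with their support, 3 rose and 3 fell (13.6% each), with a median of 0.16. When mitochondrial and ribosomal genes entered the total, 5 of them rose and 2 fell, beside 29.5% and 9.38% of all genes, with a median of 0.38. Lims2 (PINCH2) rose from 0.35 to 33.5 CPM (6.60) and Tns3 from 19.8 to 55.2 CPM (1.48), while Rock2 fell from 268 to 97.7 CPM (-1.45) and Flna, an actin crosslinker, from 85.0 to 33.6 CPM (-1.34). Of 9 AP-1 subunits, the frequent partners of TEAD at enhancers, 2 rose and 3 fell (22.2% and 33.3%), with a median of -0.41. Their summed level went the other way, from 789 CPM in the adherent to 1531 CPM in the neurosphere library. Jund rose from 359 to 1029 CPM (1.52) and Fosl1 fell from 19.4 to 5.31 CPM (-1.87).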

How the data were processed

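The authors deposited raw UMI counts per gene and called cell (10x Genomics 3′, Cell Ranger 7.0.1, mm10 per the labels), not normalized. The annotation and the setting for introns are not given in the sources used here. The 13 mitochondrial and 101 ribosomal genes were removed, followed by cells with fewer than 1000 UMIs or fewer than 1250 (adherent) or 2250 (neurosphere) genes. No doublets were removed. Python 3.11.15, numpy 2.4.6, scipy 1.17.1 and edgeR 4.0.16 (TMM factors) were used. Intervals are exact, at 95%. They were tested on simulated data for this comparison, with 200 changed genes among 32171, and covered the true value for 95.8% of those. The simulated counts had the Poisson spread that the intervals assume, so this coverage does not extend to genes spread unevenly over cells. Over kept cells, the variance of Ccn1 was 3.85 times its mean in adherent and 3.16 times in neurosphere cells. Called means past 2-fold.

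The members and lists were chosen with earlier results of these data known. Named were the members, Ccn1, Ccn2, Krt8, S100a4, Ly6a, and from the 5 pathway lists up to 4 genes at each end by log2 ratio with 1 CPM added and at least 100 UMIs. Marker genes were named over 10 CPM. Tead3, Tead4, Lats1 and the other paralogs and core kinases were named for their families, and F3, Dchs1, Gfap, Aqp4, Ptprc, Lum, Pdgfrb, Rgs5, Acta2 and the Taok genes after their values were seen. Positions are from GENCODE (GRCm38), with 32235 identifiers found. No member overlapped another gene on its strand. Alternatives covered scaling, gene and cell filters, thinning (seed 1), length trend and pseudocount.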

Additional observations from a re-analysis of the deposited data

How the results depend on the processing

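No paired analysis was possible because each culture has 1 library. Of the members' counts past 2-fold, that of lower genes became 2 with TMM scaling and with median-of-ratios size factors, as Wwtr1 passed the limit. Yap1 passed it, at 1.05, when the total included mitochondrial and ribosomal genes. The median of the members turned to 0.19 when Crim1 and Ankrd1 entered with at least 1 UMI, and Tead1 turned to 0.082 with the total that included mitochondrial and ribosomal genes. That setting also gave 5 focal adhesion genes, 3 TEAD list genes higher and 1 Hippo gene lower. The TEAD list had 2 higher after thinning, and 1 AP-1 gene was higher with TMM, size factors or 1 CPM added. Under every alternative run, Amotl2 stayed between 1.52 and 2.03, Lats2 between 1.06 and 1.53 and Axl between -2.99 and -2.52.

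In neurosphere cells, thinning gave shares of 68.1% for Amotl2, 57.5% for Yap1, 42.1% for Lats2, 55.9% for Tead1, 41.1% for Tead2 and 3.54% for Ajuba. The mean of per-cell CPM gave 67.0% for Amotl2 and 58.3% for Yap1 there, and 33.0% for Tead1 and 28.8% for Tead2 in adherent cells. The share of neurosphere cells over the adherent median of targets was 35.1% at 3000 UMIs, where the adherent share was 35.2%, and 44.5% without the members, where the adherent share was 42.9%. The cause of these shifts was not tested. Depth limits Crim1, Ankrd1, Ccn2, Tead3 and Fjx1, and with 1 library per culture no difference has a replicate check.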
